A study of Mus musculus with 2 samples.

Results

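Alpha cells are the glucagon-making endocrine cells of the pancreatic islet. Here they are the barcodes whose own RNA was rich in glucagon messenger, taken from single-cell RNA sequencing of mouse islets. A barcode, the tag of 1 droplet, entered if it had 500 genes or more and 1000 UMIs or more, and if mitochondrially encoded genes gave no more than 20% of them. A UMI (unique molecular identifier) stands for 1 captured RNA molecule. A kept barcode was called an alpha cell when Gcg made up at least 2% of its UMIs, Ins1 and Ins2 together under 15%, Sst under 1.5%, and Gcg UMIs outnumbered Ppy UMIs. This rule gave 1844 alpha cells among 18006 kept barcodes and 19721 barcodes in all, with 971 in the CDS library and 873 in the Saline library.

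The islets came from mice that the labels call DIO, treated for 2 weeks with CDS at 10 mg/kg or with saline, and each group is a single droplet library. The title of the study names an antagonist of the alpha2A-adrenergic receptor that acts outside the brain, and whether CDS is that compound is not stated in the labels. Strain, sex, age and the number of mice pooled per library are not stated in the labels, and the labelled cell type reads islet b cell. With 1 library per group no difference between CDS and Saline can be set against the spread between animals, so no test was made, and all 95% intervals cover counting error only.

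Both libraries held far more than alpha cells, and they differed in depth. The CDS library had 7268 barcodes and 141191447 UMIs, of which 6415 barcodes with a median of 19838 UMIs were kept. The Saline library had 12453 barcodes and 124343325 UMIs, of which 11591 barcodes with a median of 10070 UMIs were kept. Lymphoid barcodes numbered 51 in the CDS library and 2052 in the Saline library. The libraries shared 25 barcode tags, 19 of them kept in both, and 0 were alpha cells in both.

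Glucagon is cut from proglucagon inside secretory granules, mainly by the prohormone convertase Pcsk2, and its release raises blood glucose through the liver. Alpha cells release it when glucose is low, when amino acids rise and when adrenaline or sympathetic nerves act on them, while insulin and somatostatin from neighbouring cells restrain it. Their identity rests on transcription factors that include Irx1 and Irx2, and Ttr, the thyroxine carrier transthyretin, is abundant in them.

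The 250 bases before the transcript start of Gcg, the gene used to choose the cells, and of Irx2, a homeobox gene that marks alpha cells and was not used, are printed from RefSeq on GRCm38.p6. They lie at chr2:62483654-62483903 on the minus strand and at chr13:72628570-72628819 on the plus strand. Capitals mark every match, on either strand, to TATAAA (the TATA box), CANNTG (the E box bound by basic helix-loop-helix factors such as Neurod1), TGACG (the core of the cyclic AMP response element) and TGTTTAC (a forkhead core). No 2 matches overlap.
Gcg: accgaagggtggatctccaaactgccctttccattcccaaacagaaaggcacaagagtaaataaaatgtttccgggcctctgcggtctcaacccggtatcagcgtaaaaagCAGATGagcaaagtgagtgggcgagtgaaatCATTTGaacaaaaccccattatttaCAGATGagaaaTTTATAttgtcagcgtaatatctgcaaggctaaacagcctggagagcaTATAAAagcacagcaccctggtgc
Irx2: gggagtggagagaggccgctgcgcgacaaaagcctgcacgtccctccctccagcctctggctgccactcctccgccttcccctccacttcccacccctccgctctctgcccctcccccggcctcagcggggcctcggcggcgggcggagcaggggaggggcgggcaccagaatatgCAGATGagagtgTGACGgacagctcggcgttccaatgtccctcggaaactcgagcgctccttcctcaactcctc
The Gcg window held TATAAA at -24 to -19 from the start and its reverse complement at -72 to -67. It held E boxes at -139 to -134, -108 to -103 and -83 to -78. The Irx2 window held 1 E box at -74 to -69 and 1 TGACG at -62 to -58. Across 32817 RefSeq windows of the same length, TATAAA was found in 12.4%, CANNTG in 66.2%, TGACG in 17.7% and TGTTTAC in 3.16%. A match is a run of letters and says nothing of a bound factor.

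Gcg chose the cells, so its values are a description of the rule. Per alpha cell its share of UMIs was at lowest 2.00%, in the median 9.65% and at highest 41.5% in the CDS library, against 2.00%, 8.48% and 43.7% in the Saline library. The median share in endothelial cells, which do not make glucagon, was 0.0462% in the CDS library and 0.0392% in the Saline library, and gives the level of free RNA in the droplets. In PP cells the median was 0.0544% and 0.0405%, but summed over the class Gcg reached 11183 CPM (UMIs per 1e6) in the CDS library and 6805 CPM in the Saline library. The 3 CDS members closest to the 2% limit had 2.00%, 2.06% and 2.06% Gcg and the 3 closest barcodes outside it 1.99%, 1.94% and 1.94%; in the Saline library these were 2.00%, 2.03% and 2.06% inside and 1.97%, 1.94% and 1.89% outside. Between 2% and 3% stood 30 CDS and 29 Saline members, and between 1% and 2% 26 CDS and 40 Saline barcodes that met the other conditions.

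Other hormones took barcodes out of the class. Of 1091 CDS and 968 Saline barcodes with at least 2% Gcg, 120 and 95 were left out, among them 73 and 50 for insulin, and 42 and 38 had at least as many Ppy as Gcg UMIs. Those left out for insulin had a median of 37524 UMIs in the CDS library and 20782 in the Saline library, against 11944 and 8323 in alpha cells. Insulin RNA in alpha cells, with a median of 1.73% of UMIs in the CDS library and 1.81% in the Saline library, was no higher than the 1.76% and 2.11% of endothelial cells. A doublet caller marked 29 CDS and 48 Saline alpha cells, and these were kept.

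**Figure D1:**
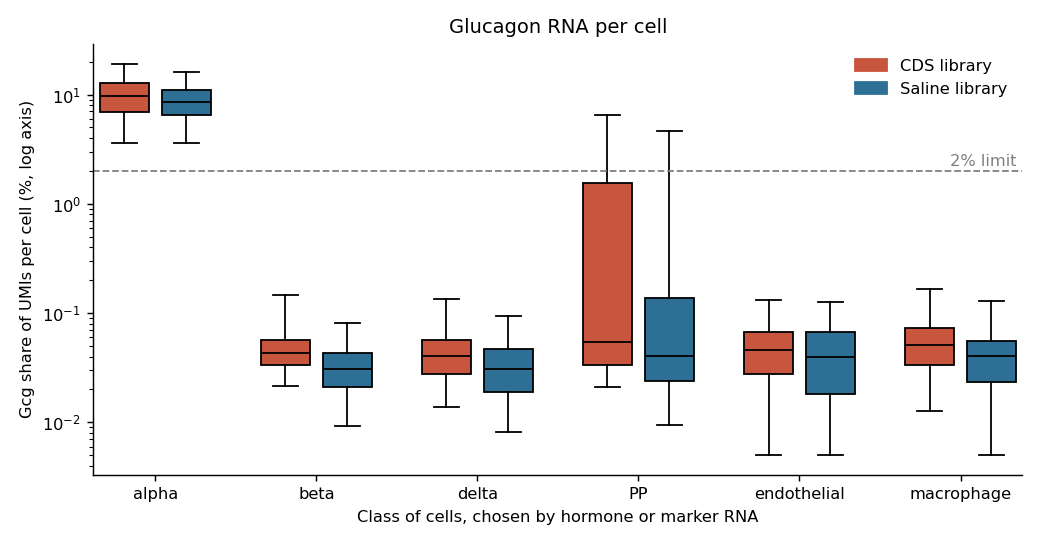
Gcg share of UMIs per cell in percent, on a log axis, by cell class, with CDS in red left of Saline in blue. Boxes span the 25th to 75th percentiles with the median as a line, and whiskers run to the 5th and 95th percentiles. Alpha cells centre on 9.65% in the CDS library and 8.48% in the Saline library, and beta, delta, endothelial and macrophage boxes lie far below the 2% line.

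Alpha cells were 18.4% of the hormone cells in the CDS library (95% exact Clopper-Pearson interval 17.4 to 19.5, 971 of 5273) and 12.6% in the Saline library (11.8 to 13.4, 873 of 6953). Hormone cells are alpha, beta, delta and PP cells, each chosen by hormone RNA. Beta cells had insulin at 15% or more, Gcg under 2%, Sst under 1.5% and Ppy under 2%. Delta cells had Sst at 1.5% or more, insulin under 15%, Gcg under 2% and more Sst than Ppy UMIs. PP cells had Ppy at 2% or more, insulin under 15% and Sst under 1.5%. They had at least as many Ppy as Gcg UMIs, with no other limit on Gcg. Beta cells numbered 3776 in the CDS library and 5340 in the Saline library, delta cells 366 and 478, and PP cells 160 and 262. These are shares of the cells recovered, from 1 library each.

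Transcription factors of alpha cell identity set the class apart, although the rule used none of them. The counts that follow rest on UMIs summed over the cells of a class in 1 library and scaled to a common total (plain counts per 1e6 UMIs, CPM). A gene was called alpha-high when its level was at least 2 times the highest of beta, delta and PP cells in both libraries, at a mean alpha level of at least 10 CPM; 204 of 9169 genes were, or 2.22%. Of 19 transcription factors measured, 4 were alpha-high, Irx1, Irx2 and Pou3f4 among them. Irx1 stood at 56.7 CPM in alpha cells of the CDS library and 52.1 CPM in those of the Saline library, against at most 4.40 and 3.60 CPM in PP cells and 0.246 and 0.322 CPM in beta cells. Irx2 stood at 96.5 and 89.4 CPM in alpha cells and at 32.4 and 27.9 CPM in PP cells. Pou3f4, a POU homeobox factor, stood at 15.6 and 9.86 CPM in alpha cells against 2.52 and 2.40 CPM in PP cells. It met the minimum of 10 CPM only through its CDS level. Among hormone cells, PP cells came nearest for all 3 genes. Unlike beta and delta cells, the PP class could hold barcodes with 2% Gcg or more, and the part of these was not tested.

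Other factors and markers were shared with neighbouring classes. Fev and Smarca1 were near the levels of delta and PP cells. Pax6, Isl1, Neurod1 and Nkx2-2, factors of all islet endocrine cells, were at most 1.35 times the highest other class in the library where that ratio was lower. Of the alpha cells, 73.4% (70.5 to 76.2) in the CDS library and 61.6% (58.3 to 64.9) in the Saline library had a UMI of Irx1 or Irx2, and 99.5% and 99.9% one of Ttr. Each cell was also thinned to 3000 UMIs, which left out 36 CDS and 20 Saline alpha cells. Irx2 was then found in 25.7% of CDS and 22.2% of Saline alpha cells. In PP cells it was found in 13.1% and 10.0%, and in beta cells in 0.694% and 0.774%. The class thus carried the marker RNA its label asks for, while the label of the samples, islet b cell, covers only part of what was captured.

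Irx1 led the alpha-high genes by ratio. Of the 15 genes with the highest ratios at 50 CPM or more, 13 are described, and these stood between 3.94 times (Csmd2) and 12.9 times (Irx1) the highest other hormone class, in the library where the ratio was smaller. They included Nxph1, a neurexin ligand, at 535.6 CPM in CDS and 649.4 CPM in Saline alpha cells against 67.6 and 117.5 CPM in PP cells. Ttr stood at 8848 and 7687 CPM in alpha cells against 1765 and 1314 CPM in PP cells. Slc7a2, a transporter of cationic amino acids such as arginine, stood at 578.8 and 781.3 CPM against 117.0 and 160.0 CPM. Lpl, the lipase that frees fatty acids from lipoproteins, stood at 430.2 and 324.8 CPM against 83.0 and 79.7 CPM. Also among the 13 were Specc1, Igsf21, Wnk3, Amotl1, Mamld1, Higd1a, Csmd2 and Reg1. Reg1 is mainly an acinar gene, at 29072 and 20624 CPM in acinar cells, and stood at 161.2 and 74.5 CPM in alpha cells.

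**Figure D2:**
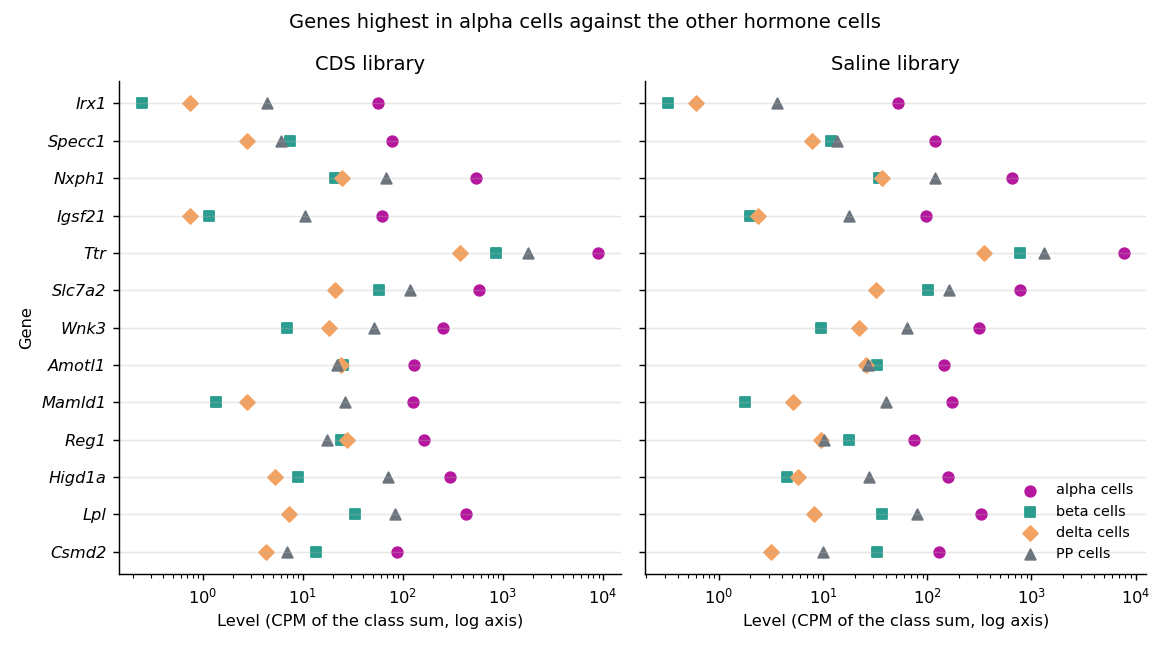
Level of 13 of the 15 alpha-high genes with the highest ratios, as CPM of the class sum on a log axis, in the CDS library (left) and the Saline library (right). Symbols stand for alpha, beta, delta and PP cells; alpha cells lie rightmost in every row of both panels, and PP cells come next for most genes.

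Amino acids are a main stimulus of glucagon release. Of 17 measured genes of amino acid transport and use, 4 were alpha-high, beside 2.22% of all genes. They were Slc7a2, Slc7a8, Slc38a4 and Slc38a5. Slc38a5, a glutamine transporter tied to alpha cell growth in mice, stood at 37.1 CPM in CDS and 27.1 CPM in Saline alpha cells, against 7.06 and 6.77 CPM in delta cells and 0.68 and 0.37 CPM in beta cells. Slc38a4 stood at 208.0 and 234.0 CPM in alpha cells against 78.6 and 109.8 CPM in beta cells. None of 8 measured glucose sensing genes was alpha-high, a list too short to read beside that 2.22%. Slc2a2, the glucose transporter of beta cells, stood at 4.22 and 8.24 CPM in alpha cells against 84.7 and 135.9 CPM in beta cells.

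Receptors and second messenger genes differed from those of beta cells. Of 17 receptors measured, 2 were alpha-high, beside 2.22% of all genes. They were Sstr2, through which somatostatin restrains glucagon, and Gpr119, a lipid receptor. Sstr2 stood at 16.7 and 15.3 CPM in CDS and Saline alpha cells against 5.03 and 3.30 CPM in PP cells. Avpr1b, a vasopressin receptor, stood at 45.1 and 58.7 CPM in alpha cells against 23.9 and 31.8 CPM in PP cells and 0.417 and 0.356 CPM in beta cells. Glp1r, Chrm3 and P2ry1 were alpha-low, of 12 receptors whose lower beta or delta level was 10 CPM or more. Alpha-low means at most 0.5 times the lower of beta and delta cells in both libraries. Of 7763 genes, 140 (1.80%) met that limit. Glp1r, the receptor of glucagon-like peptide 1, stood at 8.77 and 12.3 CPM in alpha cells against 141.7 and 200.2 CPM in beta cells.

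Adrenergic receptors were of other kinds than in beta cells. Adra2a, the alpha2A receptor that lowers cyclic AMP in beta cells (chr19:54044151-54048982 on mm10, plus strand), had 32 UMIs in all CDS and 21 UMIs in all Saline alpha cells. This is 2.70 and 2.84 CPM, against 29.4 and 31.8 CPM in beta cells. At 3000 UMIs per cell it was found in 0.749% (0.302 to 1.54) of CDS and 0.821% (0.331 to 1.68) of Saline alpha cells, against 0.435% (0.0110 to 2.40) and 0.888% (0.183 to 2.57) of endothelial cells and 8.99% and 9.22% of beta cells. Unthinned, these alpha shares were 3.09% at a median of 11944 UMIs and 2.41% at 8323 UMIs, and the endothelial shares 1.14% at 7764.5 UMIs and 1.81% at 5258 UMIs. The intervals of alpha and endothelial cells overlap, so Adra2a RNA in alpha cells was not detectable above free RNA at this depth. Adra1a, a receptor that signals through calcium, stood at 43.6 and 61.2 CPM in alpha cells against 0.417 and 0.390 CPM in beta cells, and Adrb1, which raises cyclic AMP, at 13.3 and 14.6 CPM against 0.123 and 0.138 CPM. Both were alpha-high, as were the potassium channel Kcnj3, the adenylyl cyclase Adcy1 and the phosphodiesterases Pde4d and Pde8b. These are 6 of 28 genes of adrenergic and G protein signalling measured, beside 2.22% of all genes.

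Of 17 genes of proglucagon processing and granule content, 2 were alpha-high (Gpx3 and Ttr) and 2 alpha-low (Pcsk1 and Chgb). Of all genes, 2.22% were alpha-high and 1.80% alpha-low. Pcsk2 stood at 4388 CPM in CDS and 4523 CPM in Saline alpha cells against at most 2567 and 3170 CPM in another hormone class. Pcsk1, the convertase that makes insulin from proinsulin and GLP-1 from proglucagon, was alpha-low at 7.84 and 16.7 CPM against 156.1 and 266.3 CPM in beta cells. Chgb was alpha-low too, at 487.1 and 469.7 CPM against 997.0 and 967.7 CPM in beta cells, while Chga lay within 1.22 times the lower of beta and delta cells. The 10 genes furthest below both beta and delta cells were Rasgrf1, Iapp, Sntg1, Dcdc2a, Sorl1, Pdx1, Hadh, Kcnip1, Enho and Sez6l. Hadh, a mitochondrial enzyme of fatty acid oxidation that restrains insulin release, stood at 16.02 and 18.2 CPM in alpha cells against 187.2 and 197.5 CPM in beta cells, whereas Pdk4, a brake on pyruvate entry into mitochondria, stood at 111.1 and 122.1 CPM against 37.7 and 46.5 CPM in PP cells. Of 14 measured acinar markers, 6 were alpha-high, and few cells carried much of their RNA. The acinar share of UMIs had a median of 0.0401% in CDS and 0.0247% in Saline alpha cells, against 0.0532% and 0.0268% in endothelial cells, but reached 34.2% and 32.1% in the highest alpha cell. For Try5, 1 of the 6, a single cell held 50% or more of the alpha UMIs in each library. Ctrb1, chymotrypsinogen, stood at 455.0 and 479.5 CPM in alpha cells and at 2860 and 458.7 CPM in endothelial cells, with 2 alpha cells in each library holding 50% of its UMIs.

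Alpha cells differed among themselves in Ppy, the pancreatic polypeptide gene. It made up at least 1% of UMIs in 248 of 971 CDS alpha cells (25.5%, 22.8 to 28.4) and in 172 of 873 Saline alpha cells (19.7%, 17.1 to 22.5). In endothelial cells the median was 0.0367% and 0.0395%. Cells with Ppy at 1% or more had a median of 13537 UMIs in the CDS library and 8839.5 in the Saline library, against 11436 and 8151 in the other alpha cells. Pyy, peptide YY, stood at 2.29 times its level in the other alpha cells in the CDS library and 2.66 times in the Saline library. Pou3f4 stood at 0.493 and 0.529 times, Slc7a2 at 0.669 and 0.693 times and Ttr at 0.857 and 0.608 times. Irx1 and Irx2 stood at 0.990 and 0.994 times in the CDS library and 0.665 and 0.757 times in the Saline library. The split was chosen after its values were seen. A UMI of both Mki67 and Top2a, genes of dividing cells, was found in 0 of 971 CDS alpha cells (3 counts of the total allow 0.309%, and the exact upper limit is 0.379%) and in 1 of 873 Saline alpha cells, against 12 of 3776 and 41 of 5340 beta cells. These limits are for cells with such UMIs, not for cells that express the genes.

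The comparison of CDS with Saline alpha cells addresses what the treatment did to glucagon cells, and here it compares 1 library with 1 library. Alpha cells of the CDS library had a median of 11944 UMIs and 3918 genes, and those of the Saline library 8323 UMIs and 3299 genes. UMIs were summed per library, 11857627 in CDS and 7405169 in Saline alpha cells, and scaled with TMM factors. A gene counted as higher at a ratio CDS over Saline of at least 1.5 and as lower at 0.667 or less, at a mean of at least 10 scaled CPM. Of 9169 genes, 899 (9.80%) were higher and 290 (3.16%) were lower. The median log2 ratio of all genes was 0.03, and -0.10 under plain CPM without TMM, which gave 547 higher and 615 lower, so directions near 1 depend on the scaling. Of 203 alpha-high genes measured here, 16 were higher and 25 lower.

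The ratio followed gene length. Across the 9169 genes the rank correlation of the log2 ratio with the annotated span of the gene was -0.70, a description across genes of the same 2 libraries. Ordered by span into 5 groups, genes had median log2 ratios of 0.45, 0.19, 0.03, -0.12 and -0.29, with median spans of 5.18 kb in the shortest and 152.3 kb in the longest. Most higher genes were short, with 634 in the shortest group and 11 in the longest, and most lower genes were long, with 16 and 208. A length-adjusted value is the log2 ratio less its running median over 501 genes of like span. The share of intronic or nuclear RNA was not measured, and its part in the result was not tested.

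**Figure D3:**
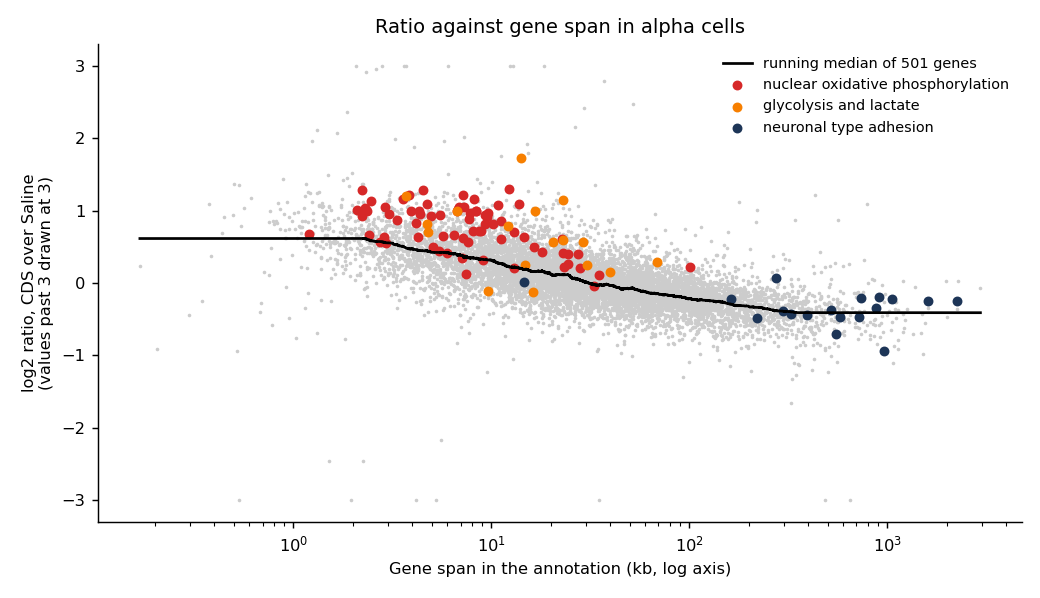
Each point is a gene measured in alpha cells, with its annotated span in kb on a log axis and its log2 ratio CDS over Saline, drawn at 3 or -3 where beyond. The line is the running median of 501 genes, which falls from short to long genes; nuclear genes of oxidative phosphorylation (red) and glycolysis (orange) mostly lie on or above it, and neuronal type adhesion genes (dark blue) lie along its low end.

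The identity genes named here stayed inside the limits, apart from Pou3f4. Gcg (chr2:62474530-62483650 on mm10, minus strand) had 1266909 UMIs in CDS and 690497 UMIs in Saline alpha cells, or 111694 and 89196 scaled CPM, a ratio of 1.252 (1.249 to 1.256) that is 0.00 on the log2 scale after length adjustment. It chose the cells, so this is a description. Irx1 (chr13:71957921-71963723, minus strand) had 672 and 386 UMIs and a ratio of 1.19 (1.05 to 1.35), and Irx2 (chr13:72628820-72634198, plus strand) 1144 and 662 UMIs and 1.18 (1.07 to 1.30). Ttr had a ratio of 1.26 (1.245 to 1.27). Pou3f4 met the minimum of 10 CPM only through its CDS level. Of 19 transcription factors 1 was higher, Pou3f4 at 1.73, and 0 were lower. Their median log2 ratio was 0.08, and -0.05 under plain CPM and -0.01 after length adjustment. Adra2a had 2.82 and 2.71 scaled CPM and a ratio of 1.04 (0.581 to 1.90), and 3 of 27 genes of adrenergic and G protein signalling were higher and 3 lower, beside 9.80% and 3.16% of all genes; the list median of -0.15 was 0.02 after length adjustment. Rgs4, which ends G protein signals, was among the higher at 1.59 (1.51 to 1.67), and the potassium channel Kcnj6 and the adenylyl cyclase Adcy9 among the lower at 0.636 (0.598 to 0.676) and 0.658 (0.610 to 0.708).

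Saa3 and Lcn2 had the highest ratios of the named genes. Reg3b at 19.0 and Clps at 7.72 were not among them, since acinar cells held over 10 times the alpha level, and 1 CDS cell held 50% or more of the alpha UMIs of each. Saa3, serum amyloid A3 (chr7:46711998-46715700, minus strand), had 678 UMIs in CDS and 20 UMIs in Saline alpha cells, 59.8 and 2.58 scaled CPM, a ratio of 23.1 (14.9 to 38.1). Lcn2, the iron-siderophore binder lipocalin 2 (chr2:32384633-32388252, minus strand), had 6184 and 202 UMIs, 545.2 and 26.1 scaled CPM, a ratio of 20.9 (18.2 to 24.2). Saa3 was found in 40 of 971 CDS and 11 of 873 Saline alpha cells, and Lcn2 in 283 and 97. In the CDS library 14 cells held 51.2% of the Lcn2 UMIs and 29.8% of the Saa3 UMIs; their median Gcg share was 10.2%, and 1 of them was called a doublet. Of the 678 Saa3 UMIs, 4 CDS cells held 50%. Saa3 met the minimum of 20 CPM for named genes, and the condition of at least 10% of the level of any other class, only through its CDS level, since in the Saline library it stood at 2.58 scaled CPM against 228.9 plain CPM in macrophages.

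Lrg1 was found in 174 CDS and 45 Saline alpha cells. Lrg1, a secreted glycoprotein of the acute phase, stood at 90.3 CPM in CDS and 12.01 CPM in Saline alpha cells, a ratio of 7.51 (6.07 to 9.40). Cp, the copper-carrying ferroxidase ceruloplasmin, stood at 5.55 (4.34 to 7.20), the neutrophil chemokine Cxcl1 at 5.13 (3.91 to 6.83) and Hamp, the iron hormone hepcidin, at 4.21 (3.26 to 5.52). These 3 were seen in few cells, with a UMI of Cp in 125 CDS and 27 Saline alpha cells, of Cxcl1 in 78 and 20, and of Hamp in 65 and 26. Cxcl1, too, was among the named genes only through its CDS level. In the Saline library it stood at 7.75 scaled CPM in alpha cells against 173.4 plain CPM in endothelial cells. Lrg1, Cp, Hamp and 1110038B12Rik met the minimum of 20 CPM only through their CDS levels. In Saline alpha cells they stood at 12.01, 9.30, 8.91 and 12.1 scaled CPM. Lrg1 and Lcn2 met the condition of at least 10% of any other class only through their CDS levels. In the Saline library they stood at 12.01 and 26.1 scaled CPM against 199.1 and 284.1 plain CPM in acinar cells. Crybb3, Mif, C2cd4b, Serping1, 1810037I17Rik and 1110038B12Rik completed the 12. Serping1, the inhibitor of complement C1, had a UMI in 819 of 971 CDS and 455 of 873 Saline alpha cells and a ratio of 2.62 (2.43 to 2.84). Several of these rises were not particular to alpha cells. In beta cells the ratio was 3.55 for Lcn2, 2.71 for Lrg1, 2.43 for 1110038B12Rik, 2.28 for C2cd4b, 2.24 for Crybb3 and 1.71 for Serping1. Saa3 at 1.54, Hamp at 1.33, Cp at 0.663 and Cxcl1 at 0.589 lay under 10 CPM there. In delta cells the ratio was 2.23 for C2cd4b, 1.96 for Crybb3, 1.60 for Serping1 and 1.42 for Lcn2. Lrg1 at 3.14 lay under 10 CPM in delta cells, as did Saa3, Hamp, Cp and Cxcl1, whose delta ratios were under 1. For 1810037I17Rik and Mif the beta ratios of 3.43 and 2.90 were above the alpha ratios of 2.88 and 2.70.

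Beside these genes, marker RNA of macrophages and of endothelial cells was also higher in CDS alpha cells. The 8 macrophage markers summed to 92.1 plain CPM in CDS and 35.4 in Saline alpha cells, with Adgre1 at 0 in the Saline library, and the 8 endothelial markers to 65.9 and 26.3 CPM. The 6 B and plasma cell markers summed to 1.35 and 37.0 CPM, with Mzb1 among those at 0 in the CDS library, and the 7 T cell markers to 1.096 and 24.4 CPM, with Cd3d, Trac and Cd4 at 0 there. Saa3 stood at 305.5 and 228.9 CPM in macrophages, Cxcl1 at 272.2 and 173.4 CPM in endothelial cells. Lcn2 stood at 53.3 and 77.2 CPM in macrophages, 61.5 and 144.0 CPM in endothelial cells and 62.8 and 284.1 CPM in acinar cells. Lrg1 stood at 65.9 and 96.8 CPM in endothelial cells and 85.5 and 199.1 CPM in acinar cells. The acinar markers summed to 1585 and 1726 CPM in alpha cells. The part of these other cell types in the result was not tested.

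The genes lowest in the CDS library were mostly long. Gm11867, a noncoding transcript, had 92 UMIs in CDS and 597 UMIs in Saline alpha cells, a ratio of 0.105 (0.0835 to 0.131). It met the minimum of 20 CPM only through its Saline level, since it stood at 8.11 scaled CPM in CDS alpha cells. Nrg1, the growth factor neuregulin 1, stood at 407.2 and 879.3 scaled CPM, a ratio of 0.463 (0.446 to 0.481), over a span of 1069.5 kb. Ppargc1a, a coactivator of mitochondrial genes, stood at 77.7 and 153.2 CPM, 0.507 (0.464 to 0.554), and Chrm3, the muscarinic M3 receptor, at 31.8 and 59.2 CPM, 0.538 (0.467 to 0.619). Pvt1, Synpr, Rbfox1, Lncpint, Kcnip4, Zbtb16, Rasgef1b and Hip1 completed the 12, between 0.464 and 0.543. After length adjustment 7 of the 12 lay at or below 0.667, and Nrg1, Ppargc1a, Pvt1 and Gm11867 were at -0.70, -0.75, -0.70 and -2.84 on the log2 scale. The falls were not particular to alpha cells. All 12 ratios were under 1 in beta cells too, from 0.137 (Gm11867) to 0.717 (Zbtb16). In delta cells they ran from 0.245 (Gm11867) to 0.967 (Ppargc1a), and some of the genes lay under 10 CPM in these classes.

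**Figure D4:**
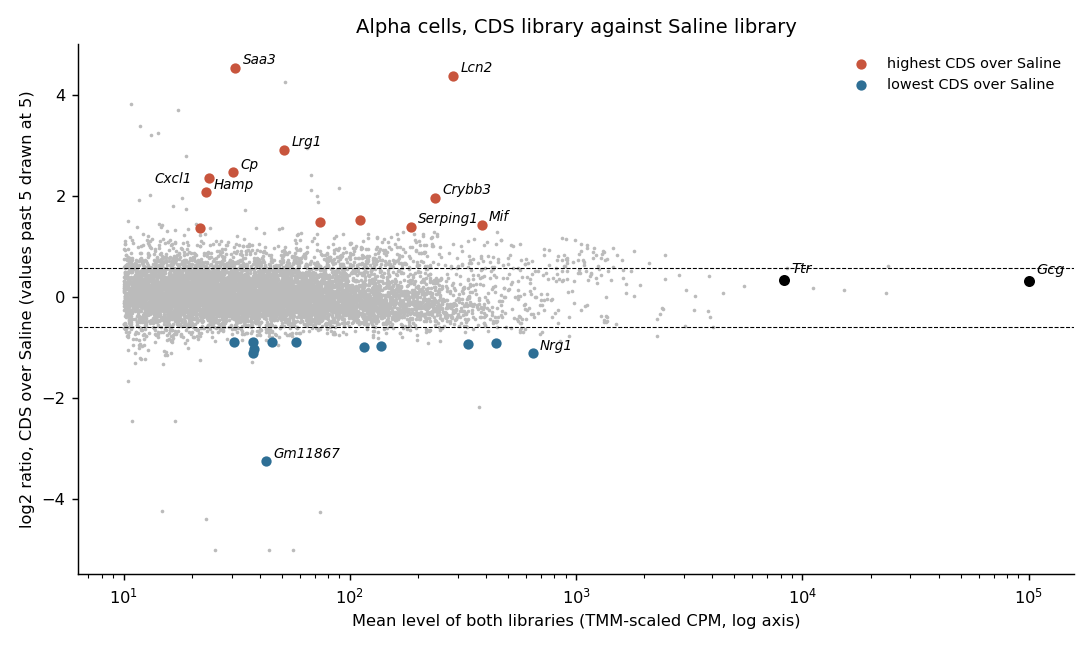
Each point is a gene measured in alpha cells, with its mean level in scaled CPM on a log axis and its log2 ratio CDS over Saline, drawn at 5 or -5 where beyond; dashed lines mark ratios of 1.5 and 0.667. Red points are the 12 highest named genes, led by Saa3 at 23.1 and Lcn2 at 20.9, blue points the 12 lowest, led by Gm11867 at 0.105, and black points Gcg and Ttr, which lie inside the lines.

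Nuclear genes of oxidative phosphorylation had the highest median of the 21 gene lists in CDS against Saline alpha cells before length adjustment, and glycolysis and lactate genes after it, at 0.46 against 0.39. Of 73 nuclear genes of oxidative phosphorylation, 52 were higher and 0 lower, beside 9.80% and 3.16% of all genes, with a median log2 ratio of 0.81 against 0.03 over all genes and 0.39 after length adjustment. Cox6c, a subunit of cytochrome c oxidase, stood at 638.8 CPM in CDS and 259.5 CPM in Saline alpha cells, a ratio of 2.46 (2.34 to 2.59), and Cox7a2 and Cox5b at 2.45 (2.29 to 2.62) and 2.44 (2.26 to 2.65). In beta cells 61 of 73 were higher and 0 lower, beside 17.8% higher and 4.32% lower of all genes there, and in delta cells 39 higher and 0 lower, beside 7.81% and 4.2%. The 13 mitochondrially encoded genes went the other way, with 0 higher and 4 lower and a median of -0.44; mt-Nd6 stood at 0.520 (0.454 to 0.596). The median share of mitochondrially encoded UMIs per alpha cell was 2.00% in the CDS library and 2.97% in the Saline library.

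Glycolysis and lactate genes were higher in 9 of 17 cases and lower in 0, beside 9.80% and 3.16% of all genes, with a median of 0.60 and 0.46 after length adjustment. Ldha, which makes lactate from pyruvate, stood at 52.6 CPM in CDS and 15.9 CPM in Saline alpha cells. Its ratio was 3.31 (2.72 to 4.06), against 2.09 in beta and 1.61 in delta cells. Ldha met the minimum of 20 CPM for named genes only through its CDS level. Tpi1 and Pfkl, glycolytic enzymes, stood at 2.29 (2.14 to 2.45) and 2.20 (1.93 to 2.52). Of 22 antioxidant and metallothionein genes 11 were higher and 0 lower, with a median of 0.58 that was 0.24 after length adjustment; the list holds the metallothionein Mt1 at 2.18 (2.11 to 2.25) and the thioredoxin Txn1 at 2.10 (1.90 to 2.33). Of 89 ribosomal protein genes 45 were higher and 2 lower, with a median of 0.59 that was 0.12 after length adjustment. In lipid handling, 4 of 21 genes of fatty acid oxidation were higher (median 0.29, and 0.19 after length adjustment), led by the fatty acid binder Fabp5 at 3.66 (3.19 to 4.22) and the lipid droplet protein Plin2 at 2.37 (1.90 to 2.97), and Ppargc1a was lower. Of 25 genes of cholesterol and fatty acid synthesis 0 were higher and 2 lower, the elongases Elovl6 at 0.659 (0.583 to 0.744) and Elovl5 at 0.660 (0.548 to 0.794), with a median of -0.26 that was -0.31 after length adjustment.

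**Figure D5:**
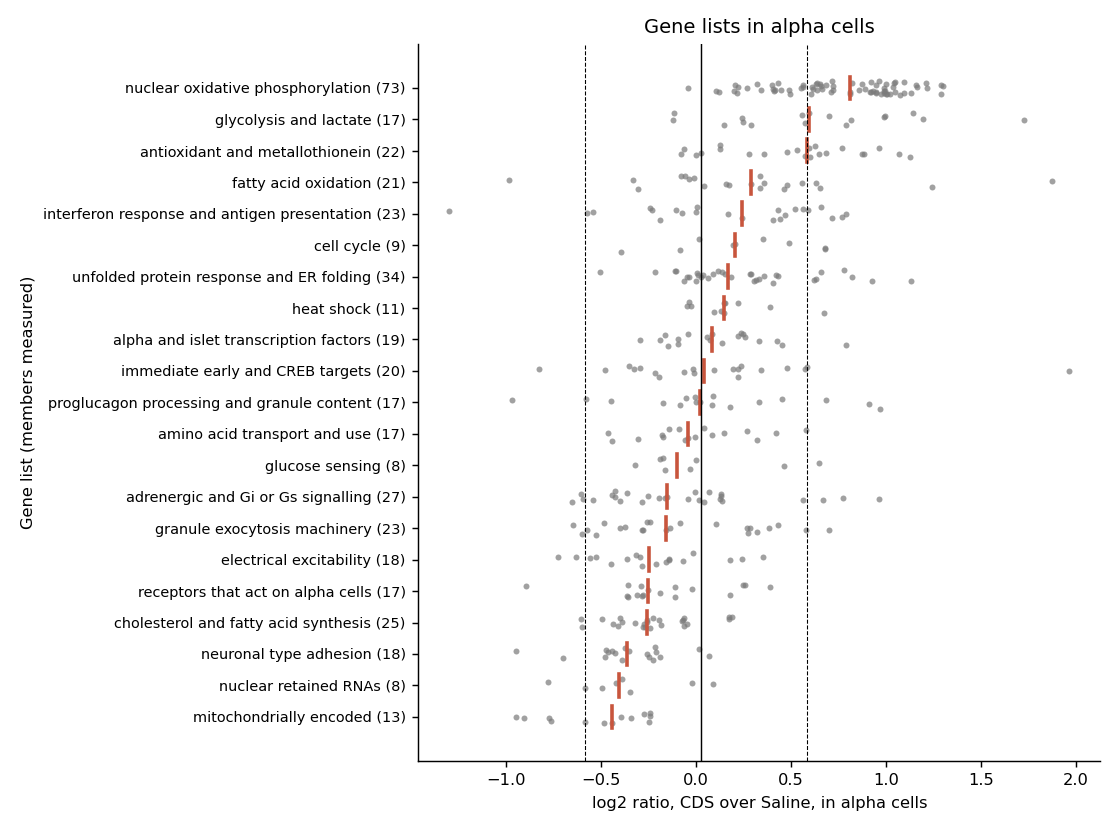
Each grey point is a measured gene of the list named at the left, by its log2 ratio CDS over Saline in alpha cells, and red bars are list medians. The solid line is the median of all genes, 0.03, and dashed lines mark ratios of 1.5 and 0.667. Without length adjustment, nuclear oxidative phosphorylation lies highest with a median of 0.81, and mitochondrially encoded genes lowest with -0.44.

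Secretory genes were mixed, read beside the 9.80% higher and 3.16% lower of all genes. Of 17 genes of proglucagon processing and granule content 3 were higher. They were Resp18 at 1.96 (1.90 to 2.02) and Pcsk1n, which encodes an inhibitor of Pcsk1, at 1.88 (1.84 to 1.92). The other was Gpx3, a secreted glutathione peroxidase, at 1.61 (1.56 to 1.66). After length adjustment Resp18, Pcsk1n and Gpx3 were at 0.56, 0.46 and 0.34 on the log2 scale, inside the limits. Pcsk1 was lower at 0.512, and Pcsk2 stood at 1.06. The list median of 0.02 was -0.10 under plain CPM and 0.03 after length adjustment. Of 34 genes of the unfolded protein response and folding in the endoplasmic reticulum 7 were higher and 0 lower, led by the translocon subunit Sec61b at 2.19 (2.09 to 2.30); the median of 0.17 was 0.00 after length adjustment. Of 23 genes of granule exocytosis 1 was higher, the SNARE protein gene Vamp8 at 1.62 (1.48 to 1.79). Lower were 2, Cadps at 0.639 (0.614 to 0.664) and Rab3b at 0.660 (0.542 to 0.803). Rab3b met the minimum of 20 CPM for named genes only through its Saline level, with 18.1 scaled CPM in CDS alpha cells. After length adjustment Vamp8, Cadps and Rab3b were at 0.28, -0.24 and -0.46 on the log2 scale, inside the limits. The list median of -0.16 was -0.14 after length adjustment.

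Channels, receptors and adhesion genes had medians below that of all genes, beside 9.80% higher and 3.16% lower of all genes. Of 18 genes of electrical excitability 0 were higher and 2 lower. These were the calcium channel Cacna1c at 0.606 (0.585 to 0.628) and the potassium channel Kcnma1 at 0.647 (0.616 to 0.680). After length adjustment Cacna1c and Kcnma1 were at -0.31 and -0.22 on the log2 scale, inside the limits. The list median of -0.25 was -0.11 after length adjustment. Of 17 receptors that act on alpha cells 0 were higher and 1 lower, Chrm3, with a median of -0.25 that was -0.17 after length adjustment. Of 18 neuronal type adhesion genes 0 were higher and 2 lower, with a median of -0.36 that was 0.02 after length adjustment. Of 17 amino acid genes 0 were higher and 0 lower, with a median of -0.04 that was 0.03 after length adjustment; Slc7a2 stood at 0.810 and Slc38a5 at 1.49 (1.26 to 1.77). Of 8 nuclear retained RNAs 1 was lower, Neat1 at 0.583 (0.537 to 0.634), and 0 were higher; the median of -0.40 was -0.35 after length adjustment. Of 8 glucose sensing genes 1 was higher, Slc37a4 at 1.57 (1.31 to 1.89), with a median of -0.10 that was -0.01 after length adjustment.

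Stress, immune and cell cycle lists had medians above 0 that were below 0 after length adjustment. Beside 9.80% higher and 3.16% lower of all genes, of 23 genes of interferon response and antigen presentation 5 were higher and 1 lower, with Psme2 at 1.73 (1.56 to 1.92); the median of 0.25 was -0.06 after length adjustment. Of 20 immediate early genes and cyclic AMP targets 2 were higher, Ier3 and Ier2, and 1 lower, Egr2; Ier2 stood at 1.502 (1.38 to 1.64), which was -0.03 on the log2 scale after length adjustment, and Atf3 at 0.719 (0.634 to 0.816), inside the limits. The median of this list was 0.04, and -0.25 after length adjustment. Of 11 heat shock genes 1 was higher, Hspe1 at 1.598 (1.49 to 1.72), near the share of all genes, with a median of 0.15 that was -0.15 after length adjustment. Of 9 measured cell cycle genes 2 were higher, Tuba1b at 1.604 (1.43 to 1.80) and Cdkn1a, an inhibitor of the cycle, at 1.60 (1.46 to 1.75), with a median of 0.21 that was -0.04 after length adjustment.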

How the data were processed

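The authors' deposited matrices hold raw counts, UMIs per gene and barcode, without normalization, for 1 CDS and 1 Saline library. Per the submitters' processing notes Cell Ranger 7.1, Seurat 4, edgeR and build mm10 were used, and the file headers give Cell Ranger 7.1.0. The protocol text names 2 kit chemistries (v3.1 and v2), so the chemistry is uncertain, and whether intronic reads were counted is not given in the sources used here. Filtering, the hormone rule and class sums were computed with Python 3.11.15, NumPy 2.4.6, pandas 2.3.3 and SciPy 1.17.1. Endothelial, macrophage and lymphoid cells held UMIs of at least 2 marker genes of their kind and of more than of the other kinds, and acinar cells at least 5% of UMIs from acinar markers. Doublets were called with Scrublet in Scanpy 1.11.5 and kept, and left out as an alternative. Ratios used TMM factors (edgeR 4.0.16, R 4.3.3), with exact conditional Poisson 95% intervals; DESeq2 1.42.0 size factors were an alternative. Gene spans came from GENCODE M21 on mm10, which matched 32235 of 32285 gene IDs. The calls were tried on simulated Poisson counts with known folds, drawn without spread between libraries and without a trend by gene length. That run checks the calculation only, not the ratios of these data. Figures were drawn with matplotlib 3.10.9.

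The members and gene lists were chosen with earlier results of these data known. Named genes were Gcg, Irx1, Irx2, Ttr and Adra2a, the 15 highest and 10 lowest genes of alpha cells against other hormone cells at 50 CPM, the 12 highest and 12 lowest CDS over Saline ratios at 20 CPM, and up to 3 members of each list; a gene named beside a count of 5 or fewer outside this rule was chosen after its values were seen. Mitochondrial, ribosomal, sex-linked, hormone and other-cell marker genes were left out of the 12. Genes whose mean alpha level over both libraries was under 10% of that of another class were left out too. The minimum of 20 CPM and this condition use means, so a gene could pass through the library where it is high. Alternatives covered barcode filters, hormone limits, doublets, scaling, weighting, thinning, gene length and thresholds. Depth was 11857627 UMIs in CDS and 7405169 UMIs in Saline alpha cells. UMIs of 1 library are not replicates, so intervals cover counting error only. Some genes that the rule names are not reported here.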

Additional observations from a re-analysis of the deposited data

Results flagged for a closer look

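A few named genes stood on one side of 1 in alpha cells and on the other in beta or delta cells, in the ratio CDS over Saline. With 1 library per group these differences were not tested. Cp stood at 5.55 in alpha cells (586 CDS and 72 Saline UMIs), at 0.663 in beta cells (179 and 296 UMIs) and at 0.0239 in delta cells (1 and 43 UMIs). Cxcl1 stood at 5.13 in alpha cells (451 and 60 UMIs), at 0.589 in beta cells (195 and 363 UMIs) and at 0.266 in delta cells (7 and 27 UMIs). Rab3b stood at 0.660 in alpha cells and 1.13 in beta cells. Atf3 stood at 0.719 in alpha cells, 1.18 in beta cells and 1.14 in delta cells. Among 7711 genes at 10 CPM or more in both alpha and beta cells, 0 were past 1.5 in one class and past 0.667 in the other, so Cp and Cxcl1 differ at levels under that minimum in beta cells.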

How the results depend on the processing

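The alpha share of hormone cells was 17.3% in the CDS library with the looser barcode filter, and 16.7% in the CDS and 11.3% in the Saline library with Gcg at 5% or more; the CDS share was higher in all 8 settings, the one reported included. Genes higher and lower in CDS alpha cells numbered 547 and 615 under plain CPM, 265 and 166 after length adjustment, 437 and 94 at 50 CPM or more, 2776 and 2156 with no minimum, 2128 and 1318 at a looser fold limit, and 170 and 31 at a fold of 2. Lower genes were 577 with hormone, acinar and mitochondrial genes out of the total and 470 after thinning to 3000 UMIs. Alpha-high genes were 105 at 50 CPM or more, 582 with no minimum, 549 at a fold of 1.5 and 39 at a fold of 4. The log2 ratio of Gcg was 0.34 with Gcg at 1% or more, 0.33 with Gcg at 5% or more, 0.34 with insulin under 5%, 0.34 with insulin under 25% and 0.33 without doublets. It was 0.20 under plain CPM, 0.31 with DESeq2 factors, 0.22 without hormone, acinar and mitochondrial genes, 0.29 as a mean over cells, 0.26 after thinning and -0.00088 after length adjustment. Length adjustment also turned Ier2 to -0.028 and the median of neuronal type adhesion genes to 0.019, and moved that of mitochondrially encoded genes to -1.05, a value without meaning for genes that have no introns. It also turned the medians of the interferon (-0.06), heat shock (-0.15), immediate early (-0.25), cell cycle (-0.04), adrenergic (0.02), amino acid (0.03), transcription factor (-0.01) and unfolded protein response lists (-0.00088). All 12 highest genes stayed past 1.5 in 13 alternative settings; of the 12 lowest, 11 stayed past 0.667 after thinning and 7 after length adjustment. The nuclear oxidative phosphorylation median ran between 0.39 and 0.84, and that of glycolysis between 0.46 and 0.61. Leaving out the cells that hold 50% of the Lcn2 UMIs in each library, an alternative chosen after seeing the data, keeps the Lcn2 ratio by construction and is no check of it. No paired analysis was possible because each group has 1 library, and no replicate could be left out. The cause of these shifts was not tested, apart from fewer or more genes passing a changed minimum or fold. Depth limits genes with few UMIs, Adra2a and Gcgr among them.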

Other observations

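Some genes with extreme ratios were left out of the named ones because another class held over 10 times the alpha level, as 115 genes at 20 CPM or more did; those given here were picked after their values were seen. Trf, the iron carrier transferrin, had 1666 UMIs in CDS and 255 UMIs in Saline alpha cells, a ratio of 4.46 (3.91 to 5.11), with a UMI in 448 and 114 alpha cells; 73 CDS cells held 50% of its UMIs. It stood at 140.5 and 34.4 plain CPM in alpha cells, at 1145 and 868 CPM in macrophages and at 3.78 and 1.89 CPM in beta cells. Slpi, a secreted protease inhibitor, had 6 UMIs in CDS and 865 UMIs in Saline alpha cells, and 1 Saline cell held 50% or more of them. Reg3b, an antimicrobial lectin of acinar cells, had 1113 and 40 UMIs, and 1 CDS cell held 50% or more of the 1113. Clps, Pnlip and Sycn, acinar genes, likewise had 50% or more of their CDS alpha UMIs in 1 cell each.

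Gcgr, the glucagon receptor, stood at 1.602 CPM in CDS and 2.57 CPM in Saline alpha cells, against 25.7 and 32.2 CPM in beta cells. At 3000 UMIs per cell it was found in 0.214% (0.0259 to 0.771) of CDS and 0.821% (0.331 to 1.68) of Saline alpha cells, against 2.17% and 0.296% of endothelial cells (0.710 to 5.0 in the CDS and 0.00749 to 1.64 in the Saline library). These intervals overlap in both libraries, so Gcgr RNA in alpha cells was not detectable above free RNA at this depth.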
